A study of Rattus norvegicus with 6 samples.

Results

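The genes described here encode the filament actins, the small proteins that hold actin monomers, and the spectrins that tie actin to the cell membrane. They were chosen by symbol with their earlier measured difference between apical and basal libraries in view, which had named the thymosin gene Tmsb4x and the transgelin gene Tagln2 among the genes higher in basal libraries. Of 9 symbols (Actb, Actg1, Tmsb4x, Tmsb10, Tagln2, Sptan1, Sptbn1, Sptbn4 and Sptbn5), 8 had a row among the 35790 genes of the deposited table, each symbol once. Sptbn5 was not analysed here. All 8 passed the filter on low counts that left 13507 genes for testing.

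Actin exists as single subunits and as filaments, and cells set the balance with proteins that bind the single subunits or the filaments. Beta-thymosins hold monomers back from polymerisation, and transgelins bind along filaments. Spectrins are long flexible rods of paired alpha and beta chains that cross-link short actin filaments under the membrane. In outer hair cells, the electromotile cells that amplify vibration in the cochlea, an actin and spectrin lattice of this kind lies under the lateral wall beside the motor protein prestin. Actin also fills the stereocilia and the cuticular plate in which they are rooted.

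Gene expression was read by RNA sequencing in hand-picked outer hair cells taken at postnatal day 9 from rats of the Sprague-Dawley strain, wild type in genotype. The apical group (3 libraries) came from the turn of the cochlea tuned to low frequencies and the basal group (3 libraries) from the turn tuned to high frequencies, with 30 cells in each library. Both groups carry no altered gene and received no agent other than the collagenase (1 mg/ml for 10 min) that freed the cells. Whether the libraries of a group come from separate animals is not stated, so the error given is the spread between libraries, which may be technical.

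Library totals lay between 16511675 and 23140976 gene counts. Defining markers of outer hair cells were present, with all 13 listed genes in the table detected in each group, and their summed share of counts was 2.37% to 4.47% across apical libraries. In basal replicates 1, 2 and 3 it was 6.88%, 2.34% and 0.913%. Other cell types were also represented. Markers of Schwann cells, the glia that myelinate nerve fibres, took 0.0430% to 0.0941% of apical counts; their shares of basal counts were 0.362%, 3.76% and 2.59%, with all 13 listed genes detected in each group. Bone markers reached 2.01% in basal replicate 3. Basal replicates 2 and 3 stand apart from the other 4 libraries in their Schwann cell share, and values that rest on them are also given against basal replicate 1 alone. In that comparison the median log2 fold change of all genes was -1.21, so each value given against basal replicate 1 alone is to be read against that shift. In bulk samples a different make-up of cells and a different amount of RNA per cell cannot be told apart.

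The promoters of the 4 genes that separated the groups are printed first, with that of Actg1, which did not, since members that differ together can be compared by the bases before their start. Each line gives the 150 bases upstream of the RefSeq start on the gene's own strand, 5′ to 3′, from RefSeq's annotation of assembly GRCr8. That build differs in numbering from the coordinates of the deposited table. For Tagln2 the strand differs as well, minus in the deposited table and plus in GRCr8. Of the 8 genes 7 were matched; Actb was not. Capitals mark a CArG box, the motif bound by serum response factor, a regulator of many actin cytoskeleton genes, or the letters TATAAA of a TATA box.
Tmsb4x: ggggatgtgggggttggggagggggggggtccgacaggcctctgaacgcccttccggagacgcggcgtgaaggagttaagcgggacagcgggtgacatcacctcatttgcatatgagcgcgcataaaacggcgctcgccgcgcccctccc
Tmsb10: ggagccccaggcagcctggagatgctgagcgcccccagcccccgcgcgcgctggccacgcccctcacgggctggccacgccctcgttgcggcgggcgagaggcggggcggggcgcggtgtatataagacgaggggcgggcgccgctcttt
Tagln2: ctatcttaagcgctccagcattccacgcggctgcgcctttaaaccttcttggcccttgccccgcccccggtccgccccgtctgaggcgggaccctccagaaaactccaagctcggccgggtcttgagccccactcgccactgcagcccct
Sptan1: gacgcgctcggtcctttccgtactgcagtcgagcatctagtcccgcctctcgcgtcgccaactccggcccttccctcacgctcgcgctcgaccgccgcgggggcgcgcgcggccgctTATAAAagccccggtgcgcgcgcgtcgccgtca
Actg1: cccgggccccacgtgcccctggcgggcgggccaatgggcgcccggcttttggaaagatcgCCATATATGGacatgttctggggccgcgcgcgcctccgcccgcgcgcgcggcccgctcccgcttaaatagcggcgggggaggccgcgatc

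These windows lie at chrX:30761461-30761610 (plus strand), chr4:106569141-106569290 (minus strand), chr13:87499258-87499407 (plus strand), chr3:33638919-33639068 (plus strand) and chr10:106120952-106121101 (minus strand). Both strands were searched. A CArG box was found in the Actg1 window only, beginning 90 bases before the start, and TATAAA in the Sptan1 window only, beginning 33 bases before the start. The windows of Sptbn1 and Sptbn4, not printed, held neither. Over all 33469 promoter windows of the same length, 0.878% held a CArG box and 8.001% held TATAAA. A match is a description of letters, and its absence says only that these letters are not in the window.

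Tmsb4x, Tmsb10, Tagln2 and Sptan1 were higher in every basal library than in any apical library, while Actb and Actg1, the actins themselves, overlapped between the turns. Levels are given as CPM, the share of a library's counts on a per-million scale after TMM scaling (trimmed mean of M-values), and differences as the log2 fold change of basal over apical with its standard error from edgeR. Since the genes were chosen with this contrast known, the values describe them and carry no test. In edgeR (quasi-likelihood F test, adjusted by Benjamini and Hochberg) none of the 8 passed, with adjusted p from 0.438 to 1.00. Of all 13507 genes tested 0 (0%) passed in that fit, and 811 had an unadjusted p under 0.05. In edgeR's bias-adjusted fit 1 of the 8 passed, Tmsb4x (adjusted p = 0.0396), against 28 of all genes tested. DESeq2 called 3 of the 8, all higher in basal libraries, against 1.25% of all genes, and 363 genes in all. The groups were separate with basal higher for 4 of the 8 against 5.4% of all genes, and separate with apical higher for none against 10.4%. The median log2 fold change was 1.43 over the 8 and -0.02 over all genes tested. Nothing is read from these counts, because the contrast had a part in the choice.

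**Figure D1:**
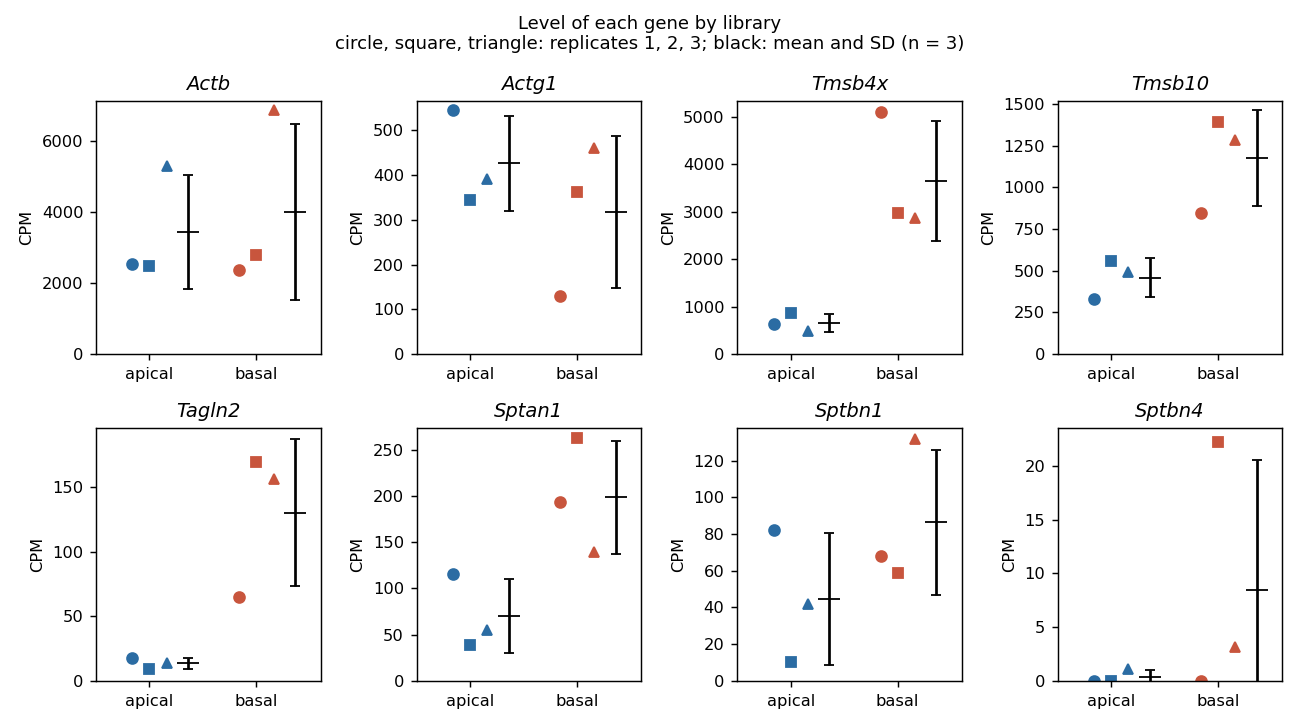
CPM (y axes, linear from 0, scale differs by panel) of the 8 genes in 3 apical (blue) and 3 basal (red) libraries, with the mean and SD beside them (n = 3; bars are cut at 0). Tmsb4x, Tmsb10, Tagln2 and Sptan1 show no overlap between the groups, and Sptbn4 is high in basal replicate 2 alone.

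Of the actins, Actb (beta-actin; ENSRNOG00000034254, chromosome 12, 13715843 to 13718841, on the unnamed build of the deposited table) is the main cytoplasmic isoform of most cells. Actb stood at 2531, 2474 and 5301 CPM in apical replicates 1, 2 and 3 and at 2362, 2801 and 6867 CPM in basal replicates 1, 2 and 3. The third library of each group was the high value, and the rest of both groups lay between 2362 and 2801 CPM. The group means were 3435 ± 1616 and 4010 ± 2484 CPM (SD, n = 3 each), a difference within the spread between libraries. The log2 fold change was 0.22 (SE 0.57), and it was -0.43 without basal replicate 3.

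Actg1 (gamma-actin; ENSRNOG00000036701, chromosome 10, 109519134 to 109520846) encodes the other cytoplasmic actin, which differs from beta-actin in a few residues near its start. Actg1 stood at 545, 343 and 390.2 CPM in apical and at 129.7, 362 and 459.7 CPM in basal libraries. Basal replicate 1 was the lowest of all 6 and the other basal libraries lay inside the apical range. Its log2 fold change was -0.43 (SE 0.50). Against basal replicate 1 alone it was -1.71, beside a median of -1.21 over all genes. The transcripts of the actins share long stretches of coding sequence, and the sources used here do not state how reads that fit both were assigned.

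The share of Actb in the sum of Actb and Actg1, from counts per gene length, was 79.8%, 86.0% and 92.1% in apical and 94.0%, 86.9% and 92.7% in basal libraries. Beta-actin RNA was thus the larger part in each of the 6 libraries. The means were 86.0% ± 6.11 and 91.2% ± 3.79 (SD, n = 3 each), and the groups overlapped.

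The beta-thymosins held the widest gap among the abundant genes. Tmsb4x (thymosin beta 4; ENSRNOG00000047931, chromosome X, 28593405 to 28595395) encodes the main monomer-sequestering peptide of mammalian cells. It stood at 625, 858 and 482 CPM in apical and at 5108, 2984 and 2871 CPM in basal libraries. The lowest basal library was 3.35 times the highest apical library, and the highest basal value was that of replicate 1. Group means were 655 ± 189.7 and 3654 ± 1260.4 CPM (SD, n = 3 each), with a log2 fold change of 2.48 (SE 0.45).

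Several marker shares were higher in every basal library than in any apical library, as Tmsb4x was. Schwann cell markers took at most 0.0941% of apical counts and 0.362%, 3.76% and 2.59% of basal counts. Red blood cell markers took at most 0.153% of apical counts and 0.246%, 1.14% and 0.785% of basal counts. Neuronal markers, all 9 of them in the table, took 0.0196% to 0.0329% of apical counts and 0.0345%, 0.0541% and 0.0753% of basal counts. That list holds Snap25, at 32.1, 37.5 and 22.9 CPM in apical and 184, 109.7 and 153 CPM in basal libraries. Snap25 was also the gene most like Tmsb4x over the libraries (r = 0.99). With Snap25 taken out of every library, the neuronal share of basal replicate 1 falls inside the apical range. The separation of the neuronal share therefore rests on that gene. Macrophage and leukocyte markers, with all 14 listed genes in the table detected in each group, overlapped, at 0.0330%, 0.0437% and 0.0171% in apical and 0.153%, 0.0247% and 0.212% in basal libraries. Basal replicate 1, the highest library for Tmsb4x, had the lowest Schwann, red blood cell and neuronal shares of the basal group, and against it alone the log2 fold change was 2.97. The part of other cells in the Tmsb4x difference was not tested.

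Tmsb10 (thymosin beta 10; ENSRNOG00000042499, chromosome 4, 100882216 to 100883275) encodes a close relative of thymosin beta 4 that also binds actin monomers. Tmsb10 was at 329, 558 and 489 CPM in apical and at 848, 1389.8 and 1284 CPM in basal libraries. The groups were separate, with the lowest basal library 1.52 times the highest apical library. The log2 fold change was 1.36 (SE 0.38) and 0.89 against basal replicate 1 alone, which was the lowest basal library for this gene and the highest for Tmsb4x.

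From counts per gene length, Tmsb4x made up 63.4%, 58.4% and 47.3% of the thymosin sum in apical libraries and 84.6%, 66.2% and 67.1% in basal libraries. The groups were separate, though apical replicate 1 and basal replicate 2 lay within 3 percentage points of each other. The means were 56.3% ± 8.23 and 72.6% ± 10.4 (SD, n = 3 each), a gap of 16.3 percentage points that was 10.3 without basal replicate 1. Tmsbl1, a thymosin-like gene on chromosome X, was at 106, 96.6 and 88.8 CPM in apical and 168, 239 and 109 CPM in basal libraries, with a log2 fold change of 0.82 (SE 0.42).

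The ratio of thymosin to actin RNA, a quantity added after the values were seen, was 0.692, 1.14 and 0.394 in apical and 5.35, 3.11 and 1.29 in basal libraries. It is the length-scaled sum of Tmsb4x and Tmsb10 over that of Actb and Actg1. Every basal library lay above every apical library, by a narrow margin between apical replicate 2 and basal replicate 3. The means were 0.742 ± 0.375 and 3.25 ± 2.03 (SD, n = 3 each), a gap of 2.51 that was 1.46 without basal replicate 1.

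**Figure D2:**
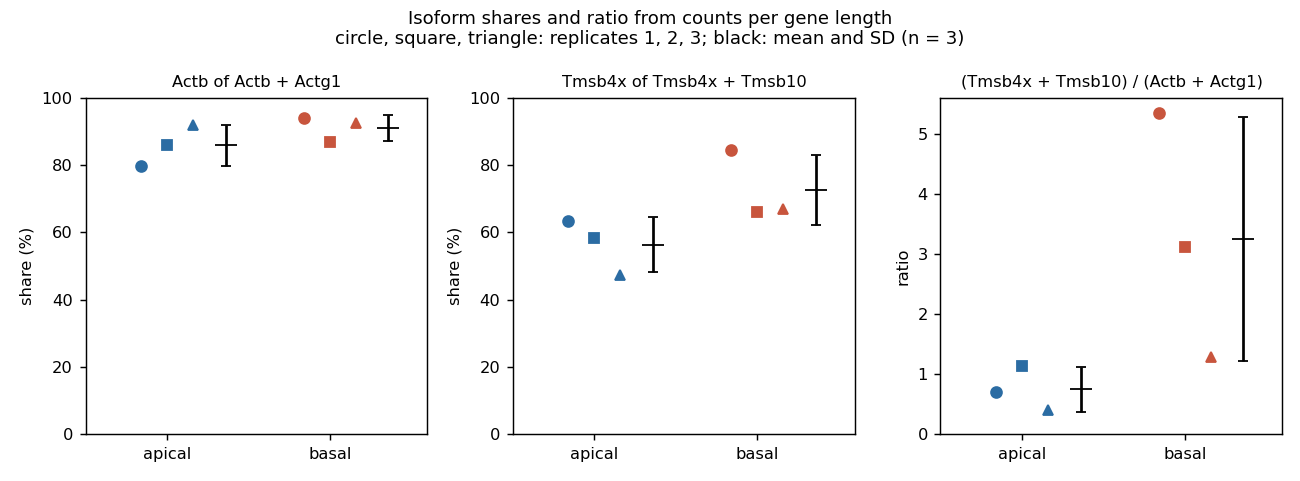
Share of Actb in the actin sum (left, percent), share of Tmsb4x in the thymosin sum (middle, percent) and ratio of thymosin to actin (right) in 3 apical (blue) and 3 basal (red) libraries, with mean and SD (n = 3). The actin share overlaps at 79.8% to 94.0%, whereas the thymosin share and the ratio are separate between the groups.

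Tagln2 (transgelin 2; ENSRNOG00000008301, chromosome 13, 90807199 to 90814119), the actin-binding transgelin of cells other than smooth muscle, had the largest fold difference of the 7 members detected in all 6 libraries. It was at 17.8, 9.36 and 14.1 CPM in apical and at 65.3, 170.0 and 156 CPM in basal libraries. The lowest basal library was 3.67 times the highest apical library. Its log2 fold change was 3.25 (SE 0.60). The authors' deposited table gives it a log2 fold change of 3.34 and an adjusted p of 0.0414. It was the only member past 0.05 in the authors' deposited table, where 0.26% of all genes passed with basal higher, and Tmsb4x had an adjusted p of 0.0619 there.

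Unlike Tmsb4x, Tagln2 was lowest among basal libraries in replicate 1 and higher in replicates 2 and 3, the libraries with Schwann cell shares of 3.76% and 2.59%. Against basal replicate 1 alone its log2 fold change was 2.26. In that library 65.3 CPM of Tagln2 stood beside a Schwann cell share of 0.362%, above the apical 0.0430% to 0.0941%. Red blood cell markers took 0.0178% to 0.153% of apical counts and 0.246%, 1.14% and 0.785% of basal counts, with 6 of 10 listed genes in the table. Fibrocyte and mesenchyme markers took 0.286% to 0.384% of apical counts and 0.169%, 1.00% and 1.06% of basal counts, with all 12 listed genes in the table detected in each group. The part of any of these cells in the Tagln2 difference was not tested. Smooth muscle and pericyte markers stayed at or under 0.0149% in every library, and Acta2, the smooth muscle actin, had 3 counts in basal replicate 3 and 0 elsewhere. Tagln, a transgelin on that list, had 65, 326 and 0 counts in apical and 201, 318 and 227 in basal libraries. Tagln2 itself took 0.00095% to 0.0177% of counts, and the part of smooth muscle cells in its difference was not tested.

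**Figure D3:**
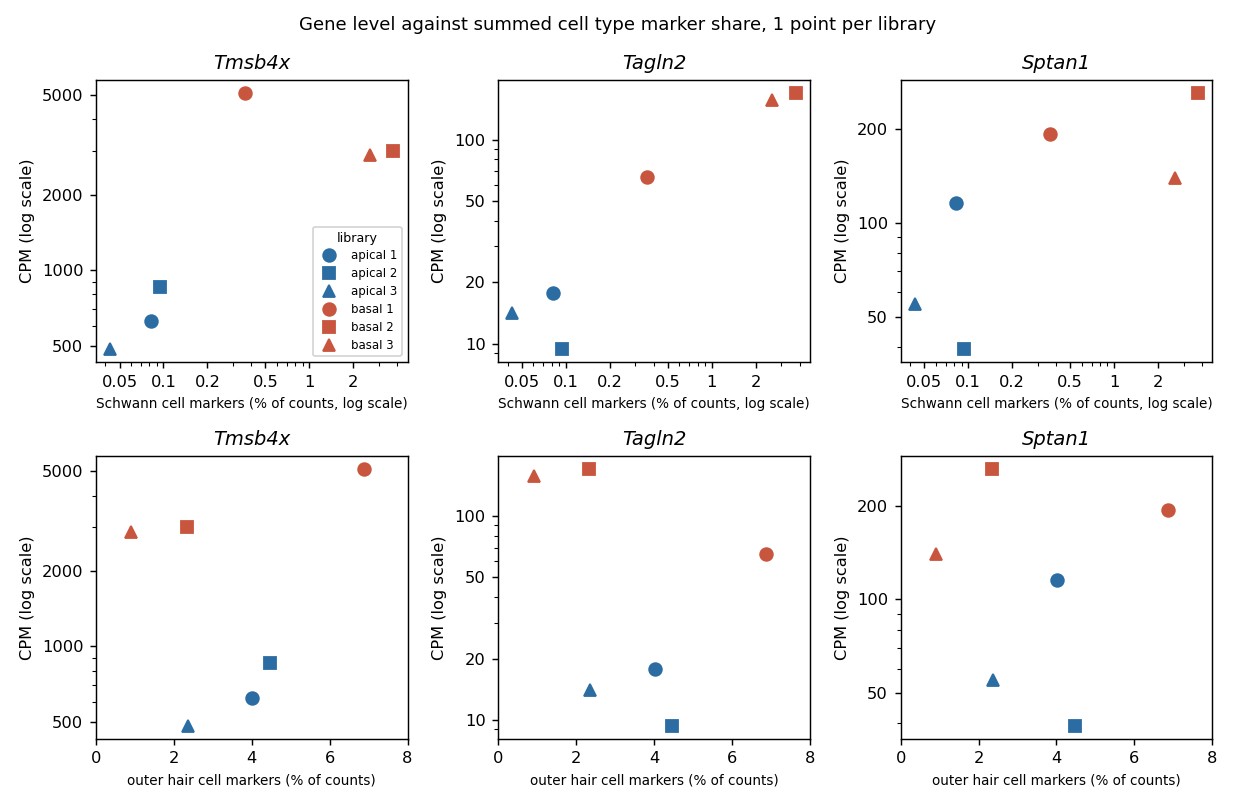
CPM of Tmsb4x, Tagln2 and Sptan1 (y axes, log scale) against the summed percent of counts of Schwann cell markers (top, log scale) and of outer hair cell markers (bottom, linear) in 6 libraries. Basal replicate 1 (red circle), at 0.362% Schwann cell and 6.88% outer hair cell markers, is the highest library for Tmsb4x and the lowest basal library for Tagln2.

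Sptan1 (alpha-II spectrin; ENSRNOG00000015396, chromosome 3, 8534440 to 8599260) encodes the alpha chain that pairs with every non-erythroid beta chain. It stood at 116, 39.3 and 55.0 CPM in apical and at 193, 262 and 139.8 CPM in basal libraries. The groups were separate, with basal replicate 3 at 1.21 times apical replicate 1. For Sptan1 the log2 fold change was 1.503 (SE 0.52). It was 1.48 against basal replicate 1 alone, where the median of all genes was -1.21. The highest library for Sptan1, basal replicate 2, had the highest Schwann cell share (3.76%). The lowest basal library for Sptan1, replicate 3, had a share of 2.59%. Basal replicate 1 had 0.362%, above the apical 0.0430% to 0.0941%. The part of Schwann cells in the Sptan1 difference was not tested.

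The beta chains did not repeat this pattern. Sptbn1 (beta-II spectrin; ENSRNOG00000005434, chromosome 14, 114518816 to 114692764), the widespread partner of alpha-II spectrin, was at 82.1, 10.52 and 41.7 CPM in apical and at 68.1, 59.0 and 132 CPM in basal libraries. Apical libraries alone spanned a 7.80-fold range, and the groups overlapped. Its log2 fold change was 0.95 (SE 0.77), and it was 0.47 without apical replicate 2, 0.51 without basal replicate 3 and 1.71 without apical replicate 1.

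Sptbn4 (beta-IV spectrin; ENSRNOG00000055371, chromosome 1, 84168495 to 84254645) encodes the beta chain of axon initial segments and nodes of Ranvier in nerve fibres. It had 0, 0 and 27 counts in apical and 0, 383 and 64 counts in basal libraries. Of its basal counts, most came from replicate 2, the library with the highest Schwann cell share (3.76%), and none from replicate 1. Neuronal markers, Snap25 among them, took 0.0345%, 0.0541% and 0.0753% of counts in basal replicates 1, 2 and 3 and 0.0196% to 0.0329% in apical libraries. The separation of that share rests on Snap25. The part of neuronal cells in the Sptbn4 counts was not tested. The log2 fold change of 4.47 (SE 3.19) rests on so few counts that the fit's prior count sets part of it.

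Among the beta chains analysed, Sptbn1 took 100%, 100% and 97.8% of the length-scaled sum in apical and 100%, 76.0% and 98.1% in basal libraries. The groups overlapped, with means of 99.3% ± 1.27 and 91.3% ± 13.3 (SD, n = 3 each). The ratio of these beta chains to Sptan1 was 0.763, 0.288 and 0.835 in apical and 0.379, 0.319 and 1.03 in basal libraries, with overlapping groups and means of 0.628 ± 0.297 and 0.577 ± 0.397 (SD, n = 3 each).

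That account changed when Sptb was added to the beta chains, an alternative chosen after seeing the data. Sptb, the erythroid beta spectrin, was at 12.8, 15.8 and 4.28 FPKM (the deposited values, scaled for depth and gene length) in apical and at 5.84, 1.55 and 1.54 FPKM in basal libraries. In apical replicate 2 it was above Sptbn1, which stood at 1.504 FPKM there. The difference for Sptb was -1.75 on the log2 scale (SE 0.85; edgeR adjusted p = 0.948), with overlapping groups by CPM. With Sptb included, Sptbn1 made up 47.1%, 8.46% and 57.3% of the summed beta chains in apical and 58.6%, 66.6% and 90.5% in basal libraries, so the groups were separate by a small margin.

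The summed beta to alpha ratio then became 1.62, 3.40 and 1.42 in apical and 0.647, 0.363 and 1.12 in basal libraries, also separate. Sptb is the beta chain of red blood cells, and red blood cell markers took 0.0178% to 0.153% of apical and 0.246% to 1.14% of basal counts. Their part in the Sptb values was not tested.

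**Figure D4:**
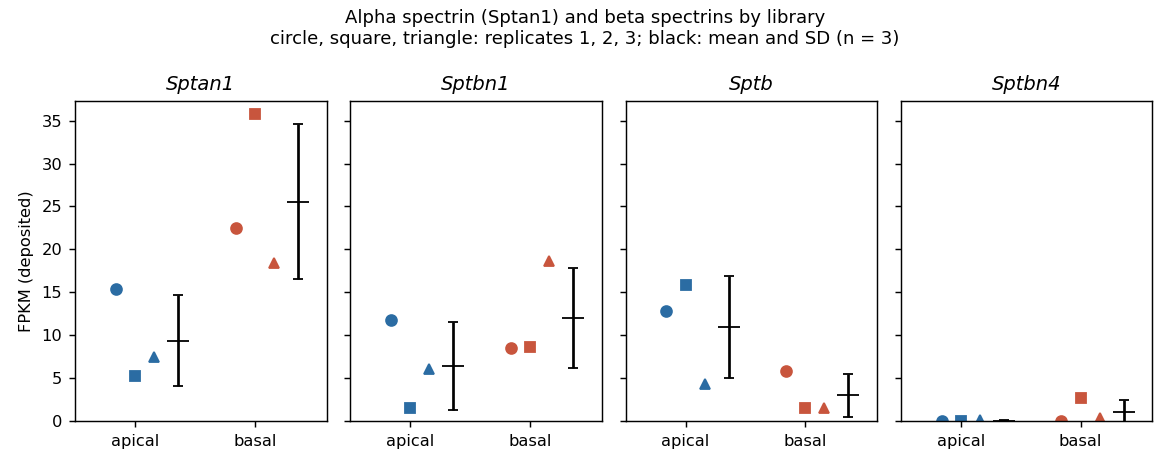
Deposited FPKM (shared linear y axis) of the alpha chain Sptan1 and of 3 beta chains in 3 apical (blue) and 3 basal (red) libraries, with mean and SD (n = 3; bars are cut at 0). Sptan1 is separate between the groups, Sptbn1 and Sptb overlap with their means in opposite order, and Sptbn4 stays at or under 2.66 FPKM.

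Levels can be compared between genes on the deposited FPKM scale, which divides by length. In apical libraries the order of mean FPKM was Actb (2729.5 ± 1324), Tmsb4x (1126 ± 316), Tmsb10 (926 ± 239), Actg1 (386 ± 93.6), Tagln2 (10.8 ± 3.31), Sptan1 (9.36 ± 5.33), Sptbn1 (6.44 ± 5.12) and Sptbn4 (0.0445 ± 0.0771), each SD over 3 libraries. Ranges overlapped between Tmsb4x and Tmsb10, between Tagln2 and Sptan1 and between Sptan1 and Sptbn1. Within libraries, Sptan1 was above Sptbn1 in every apical library. The order of Tmsb4x and Tmsb10, and that of Tagln2 and Sptan1, changed from library to library.

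In basal libraries the order began with Tmsb4x (5917 ± 1508), Actb (3079 ± 1997) and Tmsb10 (2299 ± 719), whose neighbouring ranges overlapped. Actg1 (282 ± 161), Tagln2 (101 ± 49.2), Sptan1 (25.6 ± 9.05), Sptbn1 (11.95 ± 5.84) and Sptbn4 (1.01 ± 1.44) followed. Overlap between neighbours was also found for Actg1 and Tagln2 and for Sptan1 and Sptbn1. Ranked among all genes of a library by FPKM, Tmsb4x was 67, 55 and 129 in apical and 9, 11 and 14 in basal replicates 1, 2 and 3. Actb was 31, 39 and 13 in apical and 59, 37 and 11 in basal libraries. Spectrin chains ranked at 2902 or lower in every library. The 8 genes together took 0.431%, 0.436% and 0.704% of counts in apical and 0.780%, 0.838% and 1.20% in basal libraries.

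Across the 6 libraries, Pearson's r of log2 CPM was 0.90 for Tmsb10 with Tagln2, 0.84 for Tmsb4x with Tagln2, 0.83 for Tmsb4x with Tmsb10 and 0.86 for Tagln2 with Sptan1. Actb with Actg1 gave 0.41 and Actg1 with Tmsb4x gave -0.62. These values describe 6 points that share their library and turn.

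The genes most like 3 of the members were sought among 3752 others with a mean of at least 50 CPM, by Pearson's r of log2 CPM over the same 6 libraries. For Tmsb4x they were Snap25 (r = 0.99), a synaptic fusion protein that is also on the neuronal marker list, Nfia (0.98), a transcription factor, and Dpm3 (0.98). Snap25 was at 32.1, 37.5 and 22.9 CPM in apical and 184, 109.7 and 153 CPM in basal libraries. For Actg1 they were Mbtps1 (0.99), a protease of the Golgi, Adprh (0.99) and Lman2 (0.99), all lowest in basal replicate 1. For Sptan1 they were Cotl1 (0.97), an actin-binding protein, Syap1 (0.96) and Synj1 (0.96), a synaptic phosphatase. As many as 40, 142 and 33 genes had an r above 0.9 with Tmsb4x, Actg1 and Sptan1, so these names are the top of longer lists.

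Genes that work with actin and spectrin were followed in 5 lists of 112 symbols, of which 103 were in the table and 85 were tested. None of the 85 passed in edgeR. In basal libraries 48 were higher and 37 lower, with a median log2 fold change of 0.27. An unadjusted p under 0.05 in edgeR was reached by 8 of the 85, against 811 of all 13507 genes. DESeq2 called 1 of them, higher in basal libraries, against 1.25% of all genes. Groups were separate with basal higher for 6 of the 85, against 5.4% of all genes, and with apical higher for 6, against 10.4%.

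Of the genes that bind or sever actin monomers and filaments, 17 were tested, with 10 higher and 7 lower in basal libraries and a median of 1.08. That median depended on single libraries: it was 0.13 without basal replicate 3, 0.22 without basal replicate 2, 0.44 without apical replicate 2 and 0.51 without apical replicate 1. It was -0.51 against basal replicate 1 alone, where the median of all genes was -1.21, and 0.32 with no count filter. Pfn1 (profilin, which hands monomers to growing filaments) was at 229.6, 271 and 399.8 CPM in apical and 745, 440.4 and 804 CPM in basal libraries, without overlap. For Pfn1 the log2 fold change was 1.14 (SE 0.40), with an edgeR adjusted p of 0.547. Gsn (gelsolin, a severing protein) was at 117, 78.0 and 4.37 CPM in apical and 95.7, 512 and 715 CPM in basal libraries. The high values were basal replicates 2 and 3, the libraries with Schwann cell shares of 3.76% and 2.59%. For Gsn the log2 difference was 2.73 (SE 1.13), and 0.54 against basal replicate 1 alone. The part of Schwann cells in it was not tested.

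Of the nucleation genes, 26 were tested, 16 higher and 10 lower in basal libraries, with a median of 0.11. That median was 0.15 to 0.23 when 1 library was left out. Against basal replicate 1 alone it was 0.05, beside -1.21 over all genes. Arpc1b, a subunit of the Arp2/3 complex that starts branched filaments, was at 62.2, 74.9 and 13.3 CPM in apical and 120.0, 545 and 429 CPM in basal libraries. Its groups were separate, at a log2 fold change of 2.86 (SE 0.79), and the value was 1.27 against basal replicate 1 alone. The higher basal libraries, replicates 2 and 3, held Schwann cell shares of 3.76% and 2.59% and red blood cell shares of 1.14% and 0.785%, whose part in the difference was not tested. The adjusted p of Arpc1b was 0.438 in edgeR and 0.0131 in DESeq2. Brk1, a small subunit of the WAVE complex that activates Arp2/3, had a log2 fold change of 0.66 (SE 0.32), also without overlap.

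Capping proteins, tropomyosins and other filament-binding proteins gave 20 tested genes, 8 higher and 12 lower in basal libraries, with a median of -0.22 that was -0.04 without apical replicate 1, -0.13 without basal replicate 1 and 0.03 without basal replicate 2. Tpm1 (tropomyosin 1, which lies along filaments) was at 367, 331 and 258 CPM in apical and 153, 67.9 and 136 CPM in basal libraries. Its groups were separate with apical higher, the reverse of Tagln2, at a log2 fold change of -1.42 (SE 0.42) and an edgeR adjusted p of 0.438. The fold change of Tpm1 was -1.13 without basal replicate 2. Against basal replicate 1 alone it was -1.05, beside a median of -1.21 over all genes. Tmod1 (tropomodulin, which caps the slow-growing filament end in the spectrin lattice) was at 110.0, 72.0 and 476 CPM in apical and 32.1, 10.47 and 77.1 CPM in basal libraries, with a log2 fold change of -2.46 (SE 0.95). Without apical replicate 3, the highest library for Tmod1 and the one with the highest supporting cell share (0.919%), the value was -1.19. The part of supporting cells in it was not tested.

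Of spectrin's membrane partners 17 were tested, 10 higher and 7 lower in basal libraries, with a median of 0.33. The median was 0.04 without apical replicate 2, 0.14 without basal replicate 1 and 0.13 without basal replicate 2. Against basal replicate 1 alone it was -1.84, beside -1.21 over all genes. Msn (moesin, which links actin to the membrane) had 53, 0 and 30 counts in apical and 1, 971 and 2430 counts in basal libraries. Epb41l2, a protein 4.1 relative, had 54, 0 and 145 counts in apical and 1, 1099 and 1482 counts in basal libraries. Both had a single count in basal replicate 1, and their log2 fold changes of 5.62 (SE 2.39) and 4.02 (SE 2.33) turned to negative values against that library alone. The list of further actins, thymosins, transgelins and spectrins gave 5 tested genes, 4 of them higher in basal libraries, with Sptb and Tmsbl1 described above.

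**Figure D5:**
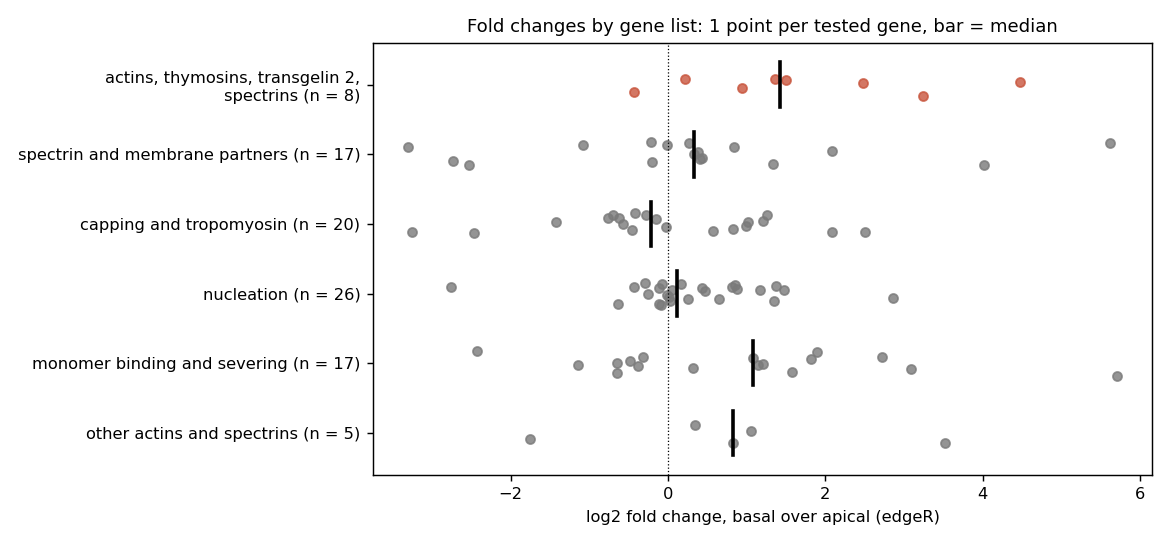
Log2 fold change of basal over apical (x axis, edgeR) for each tested gene of 5 lists of actin and spectrin partners (grey) and of the 8 genes described (red), with the median as a black bar. With all 6 libraries list medians run from -0.22 to 1.08, the upper value being 0.13 without basal replicate 3, and each list has genes on both sides of 0.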

How the data were processed

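The read counts per gene are whole numbers that the authors deposited, made from reads aligned with TopHat2 2.0.12 and Bowtie2 2.2.3, per the submitters' processing notes; no source used here names the build or the counting tool. The FPKM values are the authors' own, deposited beside the counts, and were used to compare levels between genes. Log2 fold changes with p-values from the authors' own comparison, also deposited, were read only where named. All 6 libraries entered the main fit.

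Counts were filtered with filterByExpr, scaled by TMM and fitted with edgeR 4.0.16 (glmQLFit and glmQLFTest, group as the only term) in R 4.3.3; p-values were adjusted over all tested genes at 0.05. DESeq2 1.42.0 and limma 3.58.1 (on counts, and on log2(FPKM + 1)) served as alternatives, as did other scalings, filters and leaving out each library. Isoform shares are counts per gene length within a library. Promoters came from RefSeq by symbol, with the 50 bases after the start left out; amino acid sequences were not used here. Library totals ran from 16511675 to 23140976.

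The members and lists were chosen with earlier results of these data known, and all members are named. Named partner genes are those of each list that passed the test or, as none did, the 2 of smallest p; the genes most like Tmsb4x, Actg1 and Sptan1 are the 3 of highest correlation. The thymosin to actin ratio, the added beta chain Sptb and basal replicate 1 as the lone basal library were chosen after seeing the data. Of 112 partner symbols 9, and of 110 marker symbols 8, had no row and were not analysed here. With 3 libraries against 3, an exact permutation test could not go below p = 0.1, so none was run.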

Additional observations from a re-analysis of the deposited data

How the results depend on the processing

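Of all genes tested, 0 passed the adjusted threshold in edgeR, 363 in DESeq2, 28 in edgeR's bias-adjusted fit and 8 with no count filter; leaving out 1 library gave 0 to 2, the 2 without basal replicate 1, and basal replicate 1 as the lone basal library, assumed to vary like the others, gave 289. Tmsb4x was called in the bias-adjusted fit (adjusted p = 0.0396) and against that lone library in edgeR (adjusted p = 0.0392). Of the listed partners 1 passed in DESeq2 and 0 under the main test. The cause was not tested.

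The log2 fold change of Tmsb4x ran from 2.18 to 2.97 over 20 alternatives, that of Tmsb10 from 0.89 to 1.55, that of Tagln2 from 2.26 to 3.596 and that of Sptan1 from 1.20 to 2.05, with no reversal; Sptbn1 ran from 0.47 to 1.71 and Actg1 from -1.71 to -0.03. Actb ran from -0.43 (without basal replicate 3) to 0.68 when 1 library was left out, and was -0.54 with basal replicate 1 as the lone basal library, where Sptbn4 was -5.99, Msn -4.13 and Epb41l2 -5.38. The median of all genes was -1.21 in that fit, so its values are read against that shift. With Sptb added, the basal minus apical difference in the Sptbn1 share became 34.3 percentage points and that in the beta to alpha ratio -1.44. The thymosin to actin gap was 1.12 with no length scaling.

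Same-numbered libraries correlated at 0.01, -0.02 and 0.14 in their deviations, and apical replicate 1 correlated best with basal replicate 2. The replicate block left 0 genes past the threshold.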

Other observations

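Markers of other cells of the cochlea differed in direction between lists. Supporting cell markers, all 10 detected in each group, took 0.324%, 0.358% and 0.919% of apical counts and 0.154%, 0.170% and 0.0660% of basal counts, so every basal library lay below every apical one. Bone markers took 0.0285%, 0.0594% and 0.123% of apical counts and 0.0244%, 0.189% and 2.01% of basal counts, with Mmp13 at 0 in each library. Endothelial markers stayed at or under 0.0341%, with Cldn5 at 0 throughout. The part of these cells in the actin and spectrin values was not tested.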
